A study of Mus musculus with 8 samples.

Results

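Endothelial and endocardial genes were followed in the hearts of mouse embryos that carried a hypomorphic form of the histone demethylase Lsd1. The set held 33 genes, chosen by name as genes that mark endothelium and endocardium or act in their signalling. All 33 were measured, of 18194 genes with a probe set of their own on the array. Whole hearts of 3 2lox/2lox and 5 wild-type embryos were taken at E18.5, with a separate Affymetrix Mouse430 array for the RNA of every heart. The 2lox allele is the floxed *Kdm1a* (*Aof2*) allele before any Cre recombination, so no Cre line or agent was used. It carries point mutations in the tower domain, the part of Lsd1 that binds its partner proteins, and it still makes Lsd1 protein, although the sample labels call the hearts knock-out. All cells of these embryos carried the allele, and the study describes the embryos of both groups as littermates of the same age. The labels gave neither sex nor the litter of each embryo, and nothing in them says that hearts were pooled.

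Endothelial cells line all blood vessels, and the endocardium is the endothelium that lines the chambers of the heart. Both are kept by signals through VEGF receptors, Tie receptors and BMP receptors, and by transcription factors of the ETS and SOX families. Endocardial cells also give rise to the cushions from which valves and part of the septum form. Lsd1 removes methyl groups from histone H3 and is a member of repressor complexes. The comparison of 2lox/2lox with wild-type hearts asked whether the transcripts of the endothelial lineage differed with the genotype.

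Values are log2 expression levels, so that a difference of 1 is a 2-fold change. Each gene was represented by its brightest probe set, the short stretch of transcript that the array reads, among those annotated to that gene alone. Differences are 2lox/2lox minus wild-type from a limma fit, and p-values were adjusted over all 45101 probe sets. In RNA from a whole heart, fewer cells of a type and less RNA per cell cannot be told apart.

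*Kdm1a* itself read 9.44, 9.53 and 9.55 in the 2lox/2lox hearts, against 10.36, 10.34, 10.29, 10.32 and 10.26 in the wild-type hearts. Every 2lox/2lox heart was below every wild-type heart, with a mean difference of -0.81 ± 0.06 (SE, limma adjusted p = 5.15e-04). The array medians lay between 5.03 and 5.10, and no arrays were copies of each other. As a measure of RNA integrity, the signal at the 3′ end over that at the 5′ end of the control transcripts *Actb* and *Gapdh* stood at 0.52, 0.50 and 0.33 (log2) in 2lox/2lox hearts 1 to 3, and at 0.32 to 0.38 in wild-type hearts. A sex score, the mean of 3 Y-linked genes minus *Xist*, was negative in 2lox/2lox heart 3 and wild-type heart 2 and positive in the other 6 hearts. Cardiomyocyte genes were high in all 8 hearts, with *Mybpc3*, a thick-filament protein of heart muscle, between 12.79 and 13.24.

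No endothelial or endocardial gene differed between 2lox/2lox and wild-type hearts at a limma adjusted p under 0.05. The count was 0 of 33 higher and 0 of 33 lower, where of all 18194 genes 0.110% were called higher and 0.0385% lower (0.148% in either direction). At an unadjusted p under 0.05 there were 3, *Vwf*, *Egfl7* and *Tie1*, all with positive differences, where 10.2% of all genes passed that limit, 5.82% as higher and 4.41% as lower. *Vwf* was the 1 gene whose 2lox/2lox hearts all lay above the wild-type range, which 3.16% of all genes did, and 0 genes lay wholly below it, which 2.81% of all genes did (5.97% on either side). The differences were positive for 20 genes and negative for 13, and 48.0% of all genes were positive. They ran between -0.15 for *Emcn* and 0.45 for *Vwf*, with a median of 0.02, where the median of all genes was 0.00. None reached the 1.4-fold change (0.49 on the log2 scale) that the study's methods set as a limit.

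**Figure D1:**
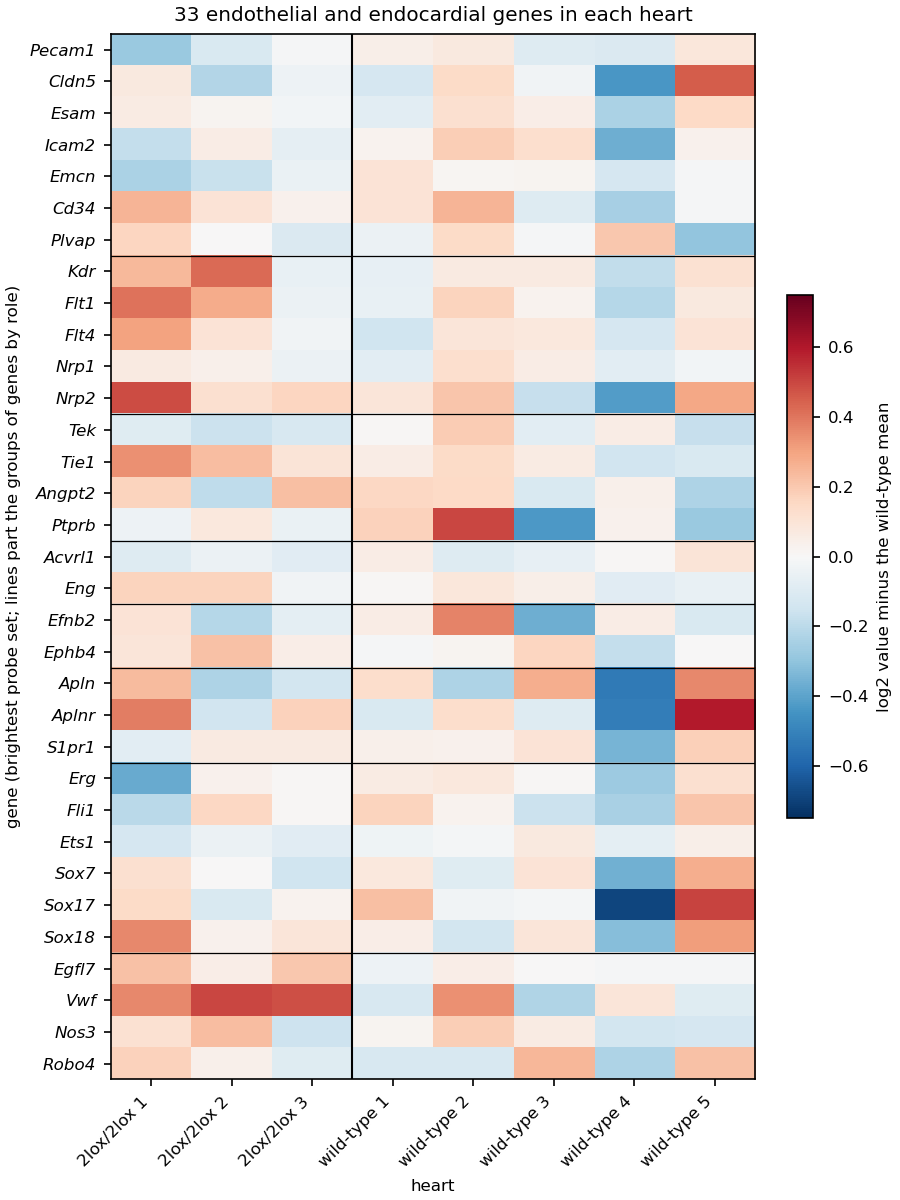
Heat map of the log2 value of each heart minus the wild-type mean of the gene, with 1 row per gene in groups by role and 1 column per heart, 2lox/2lox hearts (n = 3) left of wild-type hearts (n = 5); red is above the wild-type mean and blue below. The *Vwf* row is red in all 3 2lox/2lox hearts, and the wild-type heart 4 column is blue in most rows, the darkest being *Sox17*.

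The intervals say how large a difference these 8 hearts could still hide. For 30 of the 33 genes the 95% confidence interval lay wholly inside 1.4-fold in either direction, as it did for 92.7% of all genes. The intervals that reached past it were those of *Vwf* (0.19 to 0.71), *Nrp2* (-0.09 to 0.60) and *Aplnr* (-0.33 to 0.60). All 33 genes had a mean level above 4.21, the lower quartile of all values on the arrays. The spread between hearts of 1 genotype was a median SD of 0.13 for these genes among 2lox/2lox hearts and 0.17 among wild-type hearts, against 0.10 in each group over all genes.

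**Figure D2:**
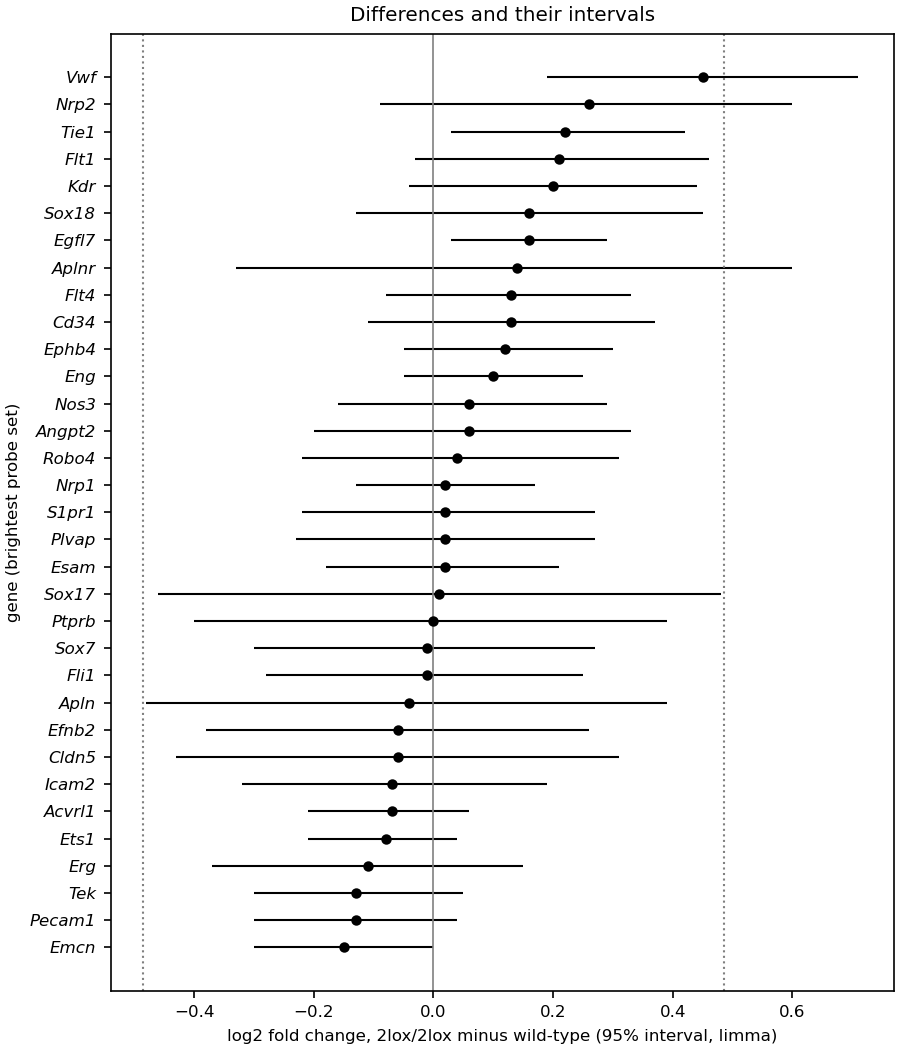
Log2 fold change of each gene, 2lox/2lox minus wild-type, with its 95% interval from limma (n = 3 and n = 5); dotted lines mark a 1.4-fold change and the grey line marks no change. The intervals of *Vwf*, *Tie1* and *Egfl7* lie above 0, and those of *Vwf*, *Nrp2* and *Aplnr* cross a dotted line.

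Before the values of single genes, promoter sequence is given for *Tie1* and *Emcn*, the genes with the smallest unadjusted p in each direction among those with a single promoter in the RefSeq table used (GRCm38.p6). That table held 17 of the 33 genes, with 21 promoters, and *Vwf* is not among them. Each run covers the 250 bases before the annotated start, 5′ to 3′ on the strand of the gene. Capitals mark the ETS-type hexamers CGGAAG and AGGAAG or their reverse complements CTTCCG and CTTCCT, the core letters that factors such as Erg, Fli1 and Ets1 recognise.
Tie1, chr4:118489850-118490099, minus strand: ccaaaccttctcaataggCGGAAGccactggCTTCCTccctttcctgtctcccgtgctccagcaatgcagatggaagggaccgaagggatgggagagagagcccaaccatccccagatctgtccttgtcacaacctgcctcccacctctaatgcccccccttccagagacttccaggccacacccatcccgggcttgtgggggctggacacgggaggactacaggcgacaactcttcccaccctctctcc
Emcn, chr3:137340828-137341077, plus strand: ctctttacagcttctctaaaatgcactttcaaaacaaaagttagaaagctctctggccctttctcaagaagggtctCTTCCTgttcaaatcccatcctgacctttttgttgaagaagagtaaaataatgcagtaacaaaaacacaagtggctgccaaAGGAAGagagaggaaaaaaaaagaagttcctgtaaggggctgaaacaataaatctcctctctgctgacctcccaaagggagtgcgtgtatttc
Each of these windows held 2 matches. AGGAAG or its complement stood in 11 of the 21 promoters (52.4%), against 29.5% of 32851 promoters of all genes, and CGGAAG or its complement in 1 of 21 (4.76%), against 13.6%. Either of these hexamers or its complement stood in 11 of the 21 promoters (52.4%), against 39.2% of all promoters. The 10 genes with a match were *Apln*, *Cd34*, *Egfl7*, *Emcn*, *Eng*, *Erg*, *Flt1*, *Nrp1*, *Robo4* and *Tie1*. The SOX-type hexamer ACAAAG or CTTTGT was in 4 promoters (19.0%), against 16.5% of all, and the GATA-type hexamer AGATAA or TTATCT in 1 (4.76%), against 9.99% of all. *Tie1* and *Emcn* were picked for differences of opposite sign, so nothing about the letters follows from their signs. A match of letters is a description and does not show a bound site.

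Of the secreted proteins, enzymes and guidance receptors, *Vwf*, *Egfl7*, *Nos3* and *Robo4*, all 4 had positive differences, with a median of 0.11. *Vwf* encodes von Willebrand factor, which endothelial cells and megakaryocytes store and which tethers platelets to injured vessel walls. It read 7.65, 7.79 and 7.77 in 2lox/2lox hearts 1 to 3, against 7.17, 7.63, 7.06, 7.38 and 7.20 in wild-type hearts 1 to 5. The groups did not overlap, though wild-type heart 2 came within 0.02 of 2lox/2lox heart 1. The means were 7.74 ± 0.08 in 2lox/2lox hearts and 7.29 ± 0.22 in wild-type hearts (SD, n = 3 and 5), a 1.36-fold difference that did not pass adjustment (log2 0.45 ± 0.12 SE, limma adjusted p = 0.241). Since platelets also carry *Vwf*, megakaryocyte and platelet genes were read beside it. The 6 of 8 such genes that were measured had a median difference of 0.10, with 0 at an unadjusted p under 0.05 in either direction. Their median differences from the wild-type mean were 0.00, 0.36 and -0.17 in the 2lox/2lox hearts, and the part of platelets in the *Vwf* values was not tested.

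*Egfl7* encodes a secreted protein that endothelial cells lay into the wall of growing vessels. It read 8.77, 8.60 and 8.75 in 2lox/2lox hearts, against 8.51, 8.60, 8.55, 8.54 and 8.54 in wild-type hearts. Hearts 1 and 3 of the 2lox/2lox group stood above all wild-type hearts, and heart 2 was level with wild-type heart 2. The difference was 0.16 ± 0.06 (SE, limma adjusted p = 0.370), small in size but set against the narrowest wild-type range of all 33 genes, 0.09. *Nos3*, the endothelial nitric oxide synthase, ran between 8.18 and 8.57 in 2lox/2lox hearts and between 8.20 and 8.52 in wild-type hearts. *Robo4*, a receptor that steadies vessel walls, ran between 5.97 and 6.23 in 2lox/2lox hearts and between 5.83 and 6.31 in wild-type hearts. The ranges of these last genes overlapped almost fully.

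The VEGF receptors and neuropilins were all on the positive side, with a median difference of 0.20 over 5 genes and none past an unadjusted p of 0.05. *Kdr* encodes the main signalling receptor for VEGF-A in endothelium. It read 9.47, 9.65 and 9.17 in 2lox/2lox hearts, against 9.16, 9.29, 9.29, 9.04 and 9.34 in wild-type hearts. *Flt1*, a receptor that binds VEGF-A and holds it back from *Kdr*, read 7.92, 7.79 and 7.47 in 2lox/2lox hearts, against 7.46, 7.68, 7.54, 7.30 and 7.59 in wild-type hearts. For both genes 2lox/2lox hearts 1 and 2 were above all wild-type hearts and 2lox/2lox heart 3 lay inside the wild-type range. The differences were 0.20 (95% interval -0.04 to 0.44, limma adjusted p = 0.546) for *Kdr* and 0.21 (-0.03 to 0.46, limma adjusted p = 0.536) for *Flt1*. Hearts 1 and 2 are also those with the larger 3′ over 5′ signal in the control transcripts, 0.52 and 0.50. With that measure as a covariate both *Kdr* and *Flt1* came to -0.03. Only 2lox/2lox hearts had the larger signal, so its part and that of the genotype cannot be told apart here. The sex score also set 2lox/2lox hearts 1 and 2 (positive) apart from heart 3 (negative). With the sex score as a covariate *Kdr* was at 0.23 and *Flt1* at 0.22. With 1 heart left out, *Kdr* was lowest, at 0.09, when 2lox/2lox heart 2 was dropped and *Flt1* was lowest, at 0.12, when 2lox/2lox heart 1 was dropped. They were highest, at 0.33 and 0.34, when 2lox/2lox heart 3 was dropped. Without 2lox/2lox heart 3, 7 of the 33 genes had an unadjusted p under 0.05, against 14.2% of all genes.

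*Flt4*, the receptor for VEGF-C that also marks lymphatic vessels, read 8.44, 8.24 and 8.11 in 2lox/2lox hearts, against 7.99, 8.23, 8.22, 8.01 and 8.24 in wild-type hearts. Its difference was 0.13, and 5 measured lymphatic markers had a median of 0.06 with 0 at an unadjusted p under 0.05. The neuropilins are co-receptors that bind both VEGF and semaphorins. *Nrp2* read 7.83, 7.46 and 7.50 in 2lox/2lox hearts, against 7.43, 7.55, 7.17, 6.92 and 7.63 in wild-type hearts, a difference of 0.26 with an interval that spanned 0. *Nrp1* read 11.02, 10.99 and 10.91 in 2lox/2lox hearts, against 10.87, 11.08, 11.01, 10.87 and 10.93 in wild-type hearts. These ranges lay on top of each other, with a difference of 0.02 (95% interval -0.13 to 0.17, limma adjusted p = 0.956) on the brightest *Nrp1* probe set.

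**Figure D3:**
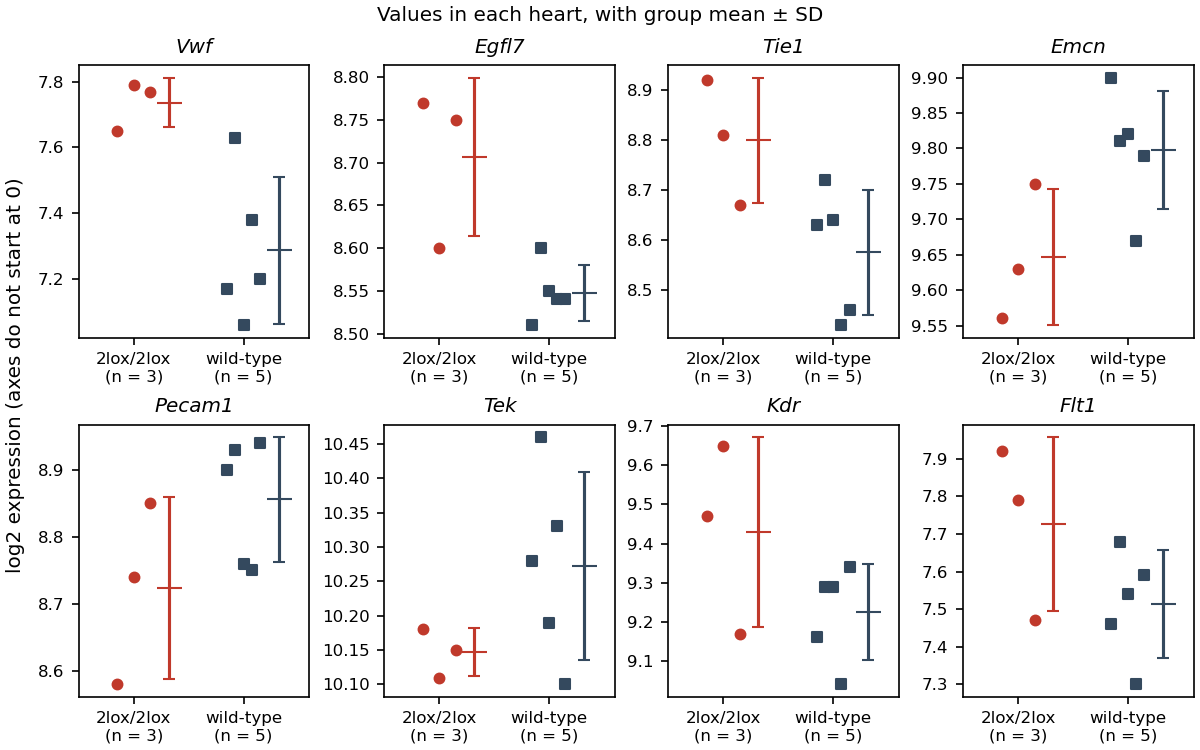
Log2 expression level of *Vwf*, *Egfl7*, *Tie1*, *Emcn*, *Pecam1*, *Tek*, *Kdr* and *Flt1* in each 2lox/2lox heart (left in each panel, n = 3) and each wild-type heart (right, n = 5), with the mean and SD of each group. The 2lox/2lox points stand clear of the wild-type points for *Vwf*, and overlap them for the other genes shown.

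Other *Nrp1* probe sets did not read like the brightest. The probe set 1457198_at gave 7.21, 7.46 and 6.92 in 2lox/2lox hearts, against 6.44, 6.28, 6.69, 6.53 and 6.43 in wild-type hearts. All 2lox/2lox hearts lay above all wild-type hearts, which 3.41% of all 45101 probe sets did. The difference was 0.73 ± 0.12 (SE), a fold of 1.65, and it missed the threshold (limma adjusted p = 0.0899) but passed it with the sex score as a covariate (0.77, limma adjusted p = 0.0173) and without 2lox/2lox heart 3 (0.86, limma adjusted p = 0.0136). It was smaller with the 3′ over 5′ signal as a covariate (0.49, with the highest adjusted p possible) and without 2lox/2lox heart 2 (0.60, limma adjusted p = 0.276), and none of the other alternatives passed the threshold (limma adjusted p of 0.0603 or more). Without 2lox/2lox heart 3, 797 probe sets of the whole array passed the threshold, against 36 with all hearts. Of the other *Nrp1* probe sets, 1448944_at gave a difference of 0.29 and 1418084_at one of 0.20. Where on the *Nrp1* transcript these probe sets lie was not examined here.

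In all, 16 of the 33 genes had more than 1 probe set, with 29 besides the brightest. Of these, 23 shared the sign of the brightest, 0 passed a limma adjusted p of 0.05, against 0.0798% of all probe sets, and 6 had an unadjusted p under 0.05, against 10.9%. *Nrp2* on 1426528_at gave 6.55, 6.33 and 6.50 in 2lox/2lox hearts, against 6.16, 6.31, 6.26, 6.09 and 6.26 in wild-type hearts (0.25, limma adjusted p = 0.284). *Egfl7* on 1421335_a_at gave 6.09, 6.61 and 6.17 in 2lox/2lox hearts, against 5.97, 6.06, 6.06, 5.98 and 6.04 in wild-type hearts (0.27, limma adjusted p = 0.383, and 0.11 without 2lox/2lox heart 2). In both cases the groups did not overlap, and the adjusted p stayed far from the threshold. The remaining probe sets of these genes gave 0.05 (1451427_a_at) and 0.18 (1435823_x_at) for *Egfl7*. For *Nrp2* they gave 0.15 (1456778_at) and 0.03 (1447343_at). *Flt1* on 1440926_at gave 6.45, 6.67 and 5.78 in 2lox/2lox hearts, against 5.99, 6.16, 5.90, 5.83 and 5.76 in wild-type hearts (0.37). Again 2lox/2lox hearts 1 and 2 were above all wild-type hearts and heart 3 was inside their range. The *Flt1* difference was 0.27 on 1451756_at and 0.05 on 1454037_a_at. The arterial ligand *Efnb2* on 1449549_at gave 5.68, 5.52 and 5.76 in 2lox/2lox hearts, against 6.25, 6.01, 5.77, 5.88 and 5.75 in wild-type hearts (-0.28, limma adjusted p = 0.414), with wild-type heart 5 inside the 2lox/2lox range. All 4 *Efnb2* probe sets had negative differences.

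**Figure D4:**
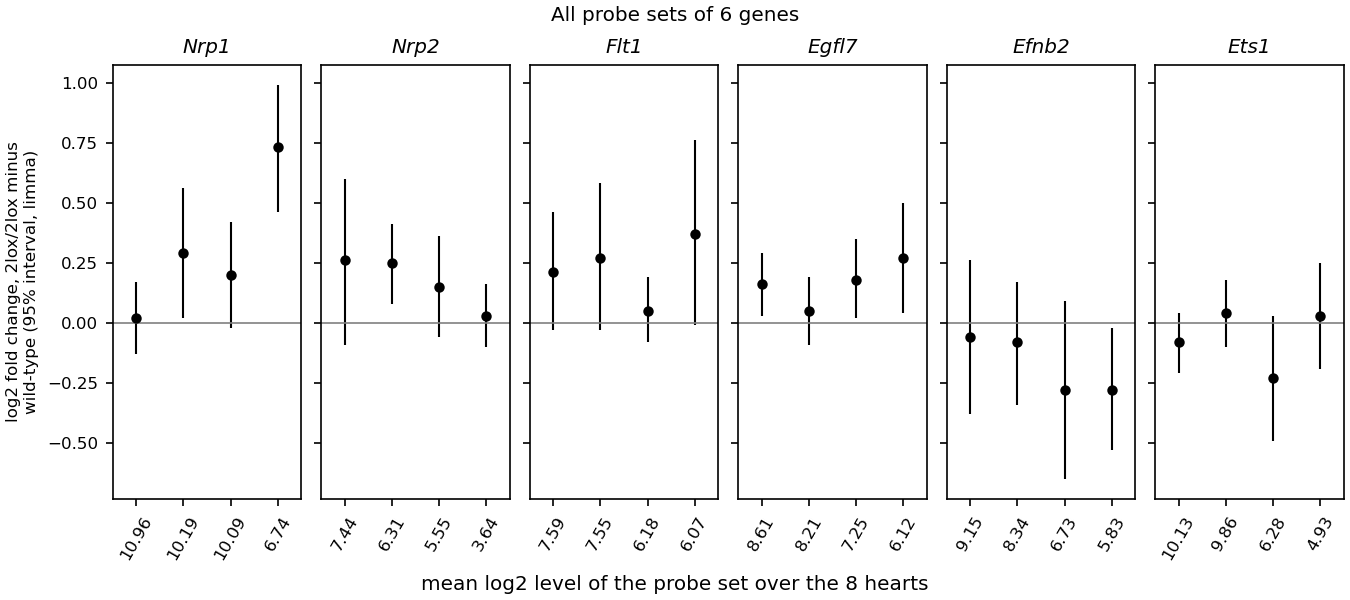
Log2 fold change, 2lox/2lox minus wild-type, with its 95% interval (limma, n = 3 and n = 5) for every probe set of 6 genes, 1 panel per gene, labelled by the mean log2 level of the probe set over the 8 hearts. The *Nrp1* probe sets run between 0.02 and 0.73, and those of *Efnb2* all lie below 0.

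Among the Tie receptors and the proteins that act on them, the 2 receptors had differences of opposite sign. *Tie1*, an endothelial receptor that tunes signalling through its partner Tek, read 8.92, 8.81 and 8.67 in 2lox/2lox hearts, against 8.63, 8.72, 8.64, 8.43 and 8.46 in wild-type hearts. 2lox/2lox heart 3 lay inside the wild-type range, below wild-type heart 2, and hearts 1 and 2 lay above it, and the difference was 0.22 ± 0.09 (SE, limma adjusted p = 0.381). With the 3′ over 5′ signal as a covariate it was 0.09. *Tek*, the receptor for angiopoietins, read 10.18, 10.11 and 10.15 in 2lox/2lox hearts, against 10.28, 10.46, 10.19, 10.33 and 10.10 in wild-type hearts. Its 2lox/2lox hearts lay at the low end of the wild-type range, with a difference of -0.13 (95% interval -0.30 to 0.05, limma adjusted p = 0.627). Both genes lie on chromosome 4, as *Kdm1a* does, and any part of this in their values was not tested. *Angpt2*, a ligand of Tek, had a difference of 0.06, and *Ptprb*, the phosphatase that acts on Tek, one of 0.00.

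The junction and surface proteins, the usual markers of endothelial cells, had a median difference of -0.06 over 7 genes, 3 positive and 4 negative. *Pecam1*, an adhesion molecule of endothelial junctions, read 8.58, 8.74 and 8.85 in 2lox/2lox hearts, against 8.90, 8.93, 8.76, 8.75 and 8.94 in wild-type hearts. 2lox/2lox hearts 1 and 2 were below all wild-type hearts and heart 3 was inside their range, with means of 8.73 ± 0.14 and 8.85 ± 0.09 (SD) in 2lox/2lox and wild-type hearts. The difference was -0.13 (95% interval -0.30 to 0.04, limma adjusted p = 0.609), and it was -0.01 with the 3′ over 5′ signal as a covariate and -0.06 without 2lox/2lox heart 1. *Emcn*, endomucin, a surface mucin of endocardium, veins and capillaries, read 9.56, 9.63 and 9.75 in 2lox/2lox hearts, against 9.90, 9.81, 9.82, 9.67 and 9.79 in wild-type hearts. It had the lowest difference of the 33 genes, -0.15 ± 0.07 (SE), with an unadjusted p of 0.0505 and a limma adjusted p of 0.459, and stood at -0.08 with the same covariate. *Cldn5* (-0.06) and *Icam2* (-0.07) were on the same side, and *Esam* (0.02), *Plvap* (0.02) and *Cd34* (0.13) on the other.

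The remaining signalling genes gave small differences. *Ephb4*, the venous receptor for ephrin-B2, read 8.41, 8.54 and 8.37 in 2lox/2lox hearts, against 8.31, 8.34, 8.48, 8.14 and 8.32 in wild-type hearts (0.12, limma adjusted p = 0.628). Its arterial ligand *Efnb2* had a difference of -0.06 on the brightest probe set. *Acvrl1*, an endothelial receptor for BMP9 and BMP10, read 5.17, 5.22 and 5.18 in 2lox/2lox hearts, against 5.32, 5.17, 5.20, 5.27 and 5.36 in wild-type hearts (-0.07, limma adjusted p = 0.737). Its co-receptor *Eng*, endoglin, ran between 9.50 and 9.69 in 2lox/2lox hearts and between 9.44 and 9.61 in wild-type hearts (0.10). *Apln*, the ligand apelin (-0.04), its receptor *Aplnr* (0.14) and *S1pr1*, the receptor for sphingosine-1-phosphate that seals vessel walls (0.02), showed differences no larger than the SD of their wild-type hearts.

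The 6 transcription factors had a median difference of -0.01, with 2 positive and 4 negative. Of the ETS factors, *Erg* (-0.11), *Fli1* (-0.01) and *Ets1* (-0.08) were below 0 on their brightest probe sets, but other probe sets gave 0.15 for *Erg*, 0.18 for *Fli1*, and 0.04, 0.03 and -0.23 for *Ets1*. On its brightest probe set *Ets1* had one of the narrower wild-type ranges, 0.15. Of the SOX factors, which act in arterial and lymphatic identity, *Sox7* was at -0.01, *Sox17* at 0.01 and *Sox18* at 0.16. No factor passed an unadjusted p of 0.05.

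The widest spreads were found within the wild-type group. *Sox17* read 6.93, 6.68, 6.69, 6.02 and 7.21 in wild-type hearts 1 to 5, a range of 1.19, and 6.85, 6.59 and 6.73 in 2lox/2lox hearts lay inside it. *Aplnr*, with 9.94, 9.41 and 9.73 in 2lox/2lox hearts, against 9.44, 9.69, 9.46, 9.04 and 10.15 in wild-type hearts, had a wild-type range of 1.10. The wild-type ranges of *Ptprb* (0.93), *Cldn5* and *Apln* (0.89 each) followed. Wild-type heart 4 was the lowest wild-type heart for 23 of the 33 genes (69.7%), against 20.7% of all genes, and the lowest of all 8 hearts for 18. Wild-type heart 5 was the highest wild-type heart for 15 (45.5%), against 19.2% of all genes. Set against the wild-type mean of each gene, the 33 genes had a median of 0.12, 0.04 and -0.03 in the 2lox/2lox hearts, against 0.03, 0.10, 0.03, -0.18 and 0.07 in the wild-type hearts. In the same wild-type heart 4 the 7 measured erythroid genes stood at 0.60, where the other hearts ran between -0.33 and 0.13, and cardiomyocyte genes at -0.13; the part of red cells in these values was not tested.

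The other genes of the vessel wall were read from further lists. The 17 measured angiogenic ligands gave 0 called genes and, at an unadjusted p under 0.05, 2 that were higher and 6 that were lower, with 4 that had all 2lox/2lox hearts below the wild-type range. Of all genes 5.82% were higher and 4.41% lower at that limit, and 2.81% lay below the range. *Slit2*, a secreted guidance cue and ligand of Robo receptors, read 10.25, 10.48 and 10.40 in 2lox/2lox hearts, against 11.03, 11.22, 11.04, 10.91 and 10.60 in wild-type hearts (-0.59, limma adjusted p = 0.170; -0.68 and 0.0353 without wild-type heart 5). *Sema3a*, a semaphorin that binds neuropilin-1, read 6.46, 7.33 and 7.40 in 2lox/2lox hearts, against 8.13, 8.10, 7.76, 7.74 and 7.61 in wild-type hearts (-0.81, limma adjusted p = 0.234). *Bmp10*, a ligand of Acvrl1, read 5.49, 5.74 and 5.80 in 2lox/2lox hearts, against 5.88, 6.28, 5.94, 6.17 and 6.15 in wild-type hearts (-0.41, limma adjusted p = 0.234). All 3 were below every wild-type heart in every 2lox/2lox heart. *Nrp1* and *Acvrl1*, the receptors named here for Sema3a and Bmp10, overlapped the wild-type range on their brightest probe sets. The *Nrp1* probe set 1457198_at lay above that range in all 2lox/2lox hearts (0.73, limma adjusted p = 0.0899).

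A further 39 endothelial and endocardial genes had a median difference of 0.01, with 21 positive, 0 called, and 5 at an unadjusted p under 0.05, of which 4 were lower. Of all genes 48.0% were positive, 10.2% passed that limit, 4.41% as lower, and 5.97% had all 2lox/2lox hearts outside the wild-type range. *Icam1*, an adhesion molecule for leukocytes, read 6.43, 6.62 and 6.40 in 2lox/2lox hearts, against 5.73, 6.01, 6.09, 5.61 and 6.12 in wild-type hearts, and was the 1 gene of this list outside the wild-type range (0.57, limma adjusted p = 0.182). *Hey1*, a Notch target, had a difference of -0.27 (limma adjusted p = 0.290) and *Mmrn2*, a matrix protein of vessels, one of -0.19 (limma adjusted p = 0.419). *Gja5*, the connexin of arterial endothelium and of atrial and conduction muscle, read 5.64, 5.72 and 6.89 in 2lox/2lox hearts, against 6.80, 6.75, 6.73, 6.80 and 6.90 in wild-type hearts. 2lox/2lox hearts 1 and 2 stood far below and heart 3 did not (-0.71, limma adjusted p = 0.320, and -1.12 with a limma adjusted p of 6.42e-04 without heart 3). Without that heart 797 probe sets were called on the array, against 36 with all hearts. Hearts 1 and 2 also had the larger 3′ over 5′ signal (0.52 and 0.50) and a positive sex score, where heart 3 had 0.33 and a negative score. The part of each in the *Gja5* values was not tested.

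Markers of the other cell types a heart can hold were set beside these values. All 12 macrophage markers had a positive difference, with a median of 0.44, 9 of 12 at an unadjusted p under 0.05 (5.82% of all genes as higher) and 4 above the wild-type range (3.16% of all genes), though none was called (*Mrc1*, a scavenger receptor of tissue macrophages, 0.45, limma adjusted p = 0.0691). Their summed level ran between 11.08 and 11.48 (log2) in 2lox/2lox hearts and between 10.70 and 11.08 in wild-type hearts. Macrophages also make *Icam1*, and their part in its value was not tested. Of the genes listed as smooth muscle and pericyte markers, 3 of 11 were higher at an unadjusted p under 0.05, *Des*, *Cnn1* and *Cspg4*, against 5.82% of all genes. Of the others 4 had negative differences, down to -0.41 for *Tagln* (limma adjusted p = 0.500), and the median of the list was 0.07. Which cells of the heart gave the *Des* and *Cnn1* values was not tested. Fibroblast and cushion mesenchyme markers (10 genes, median 0.03), cardiomyocyte markers (10 genes, median 0.05), epicardial markers (7 genes, median -0.16) and erythroid markers (7 of 11 measured, median 0.02) gave 0 called genes. At an unadjusted p under 0.05, fibroblast markers had 1 higher (*Col1a1*, 0.44) and 1 lower (*Tcf21*, -0.45). Cardiomyocyte markers had 2 higher (*Nkx2-5*, 0.27, and *Mybpc3*, 0.21). Epicardial and erythroid markers had 0, and of all genes 5.82% were higher and 4.41% lower.

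**Figure D5:**
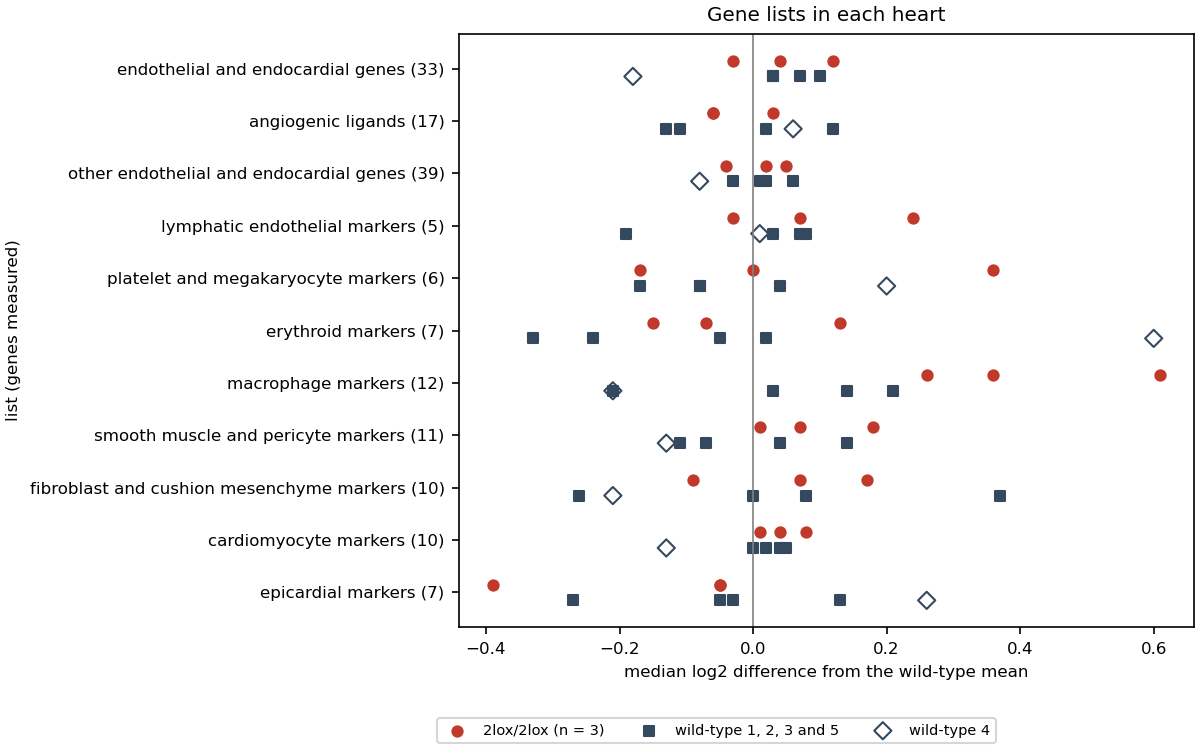
Each point is 1 heart, placed by the median over the genes of a list of its log2 distance to the wild-type mean, for each 2lox/2lox heart (n = 3, circles) and each wild-type heart (n = 5, squares, with heart 4 as an open diamond). The 33 endothelial and endocardial genes run between -0.03 and 0.12 in 2lox/2lox hearts and between -0.18 and 0.10 in wild-type hearts, while macrophage markers run between 0.26 and 0.61 in 2lox/2lox hearts and between -0.21 and 0.21 in wild-type hearts.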

How the data were processed

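RNA from each heart had been hybridized to 1 Affymetrix Mouse430 array. The log2 expression levels of 45101 probe sets were used as deposited by the authors, whose notes name limma without a version. How the probes were summarized and normalized between arrays is not stated in any source used. Another treatment of background could move low values most. Precision is limited by the number of arrays. Probe sets were named through the platform annotation and a RefSeq table (GRCm38.p6), with 34958 annotated to 1 gene, 932 to several and 9211 to none. No detection calls were used.

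2lox/2lox minus wild-type was estimated for all 8 hearts with the lmFit and eBayes functions of limma 3.58.1 under R 4.3.3. Tests were two-sided, Benjamini-Hochberg adjusted p-values covered all probe sets, and genes under 0.05 were called. The procedure was tested on simulated data. The study calls the embryos littermates, the litter of each is not given, and p-values measure the spread between these hearts. The genes and lists were chosen with earlier results of these data known. Per-heart values were given for the 10 members with the smallest p, *Pecam1*, the members with the highest and the lowest mean, any member outside the wild-type range, and at most 4 genes of each other list; remaining per-heart and per-probe-set values were chosen after they were seen. Promoters came from RefSeq. Alternatives were other moderation, normalization, filters, weights, covariates, probe sets and each heart left out.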

Additional observations from a re-analysis of the deposited data

Results flagged for a closer look

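Of 47 values tested over the 5 wild-type hearts, 6 had 1 heart far from the others. Chance alone gives such a heart in about 1 of 20 separate groups. These values are not separate, since all are read on the same hearts and the medians hold genes also tested singly. Most of the flags fall on wild-type heart 4. Wild-type heart 4 was low for *Icam2* (9.16, others 9.55 to 9.71), for *S1pr1* (8.55, others 8.93 to 9.08) and for *Erg* (6.96, others 7.24 to 7.35). It was also low for the median difference of the 33 endothelial and endocardial genes (-0.18, others 0.03 to 0.10) and for that of the cardiomyocyte markers (-0.13, others 0.00 to 0.05). Wild-type heart 3 was low for the median of the lymphatic markers (-0.19, others 0.01 to 0.08).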

How the results depend on the processing

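Under all 20 alternatives 0 of the 33 genes passed an adjusted p of 0.05. Of 294 fold changes recomputed for named genes, 288 kept their sign and 6 turned. With the 3′ over 5′ signal of control transcripts as a covariate, 1 gene had an unadjusted p under 0.05, 9 probe sets on the array were called against 36, *Kdr* and *Flt1* came to -0.03, *Nrp1* to -0.06, *Pecam1* to -0.01, *Tie1* to 0.09, *Emcn* to -0.08, *Nrp2* to 0.16 and *Ephb4* to 0.03, and 12 rather than 23 of the other probe sets shared the sign of the brightest. With probe sets averaged within a gene, 6 genes had an unadjusted p under 0.05, *Nrp1* stood at 0.31 and 1 macrophage marker was called (*Mrc1*, 0.45, limma adjusted p = 0.0258). The share of all genes at an unadjusted p under 0.05 was not computed for this fit or for that with the covariate. These counts therefore cannot be set against it. Same-numbered hearts did not deviate together (r = 0.01, -0.08 and -0.05), and pairs of unlike number ran between -0.12 and 0.13. Since the litter of each heart is not given, this cannot show whether the numbers pair them. With the replicate number as a block 0 probe sets were called and *Nrp1* came to -0.01.

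Leaving out each heart in turn, 1 to 7 genes had an unadjusted p under 0.05, 1 without 2lox/2lox heart 1 and 7 without 2lox/2lox heart 3, where 14.2% of all genes passed. That share was not computed for the other hearts left out. The probe sets called ran between 17 without wild-type heart 1 and 797 without 2lox/2lox heart 3, with 20 without 2lox/2lox heart 1 and 23 without wild-type heart 2, 3 or 4. *Nrp2* ran between 0.14 without 2lox/2lox heart 1 and 0.33, with 0.15 without wild-type heart 4. *Ephb4* was 0.07 without 2lox/2lox heart 2 and 0.08 without wild-type heart 4, and *Tek* -0.08 without wild-type heart 2. *Nrp1* ran between 0.00 and 0.05, and turned its sign without 2lox/2lox heart 1 and without wild-type heart 1. The other probe sets that shared a sign numbered 18 to 25, and the median of the 33 genes ran between 0.00 and 0.05. Called genes numbered 0 to 1 among angiogenic ligands, other endothelial genes, macrophage markers and smooth muscle markers. These were *Slit2* (without wild-type heart 5), *Gja5*, *Mrc1* and *Des* (without 2lox/2lox heart 3) and *Ptprc* (without wild-type heart 5). The causes were not tested. With 3 and 5 hearts, a difference smaller than the distance from the estimate to the end of its interval cannot be told from 0.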
